A study of Mus musculus with 6 samples.

Results

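The nuclear genes of the mitochondrial respiratory chain were examined in adrenal medulla of mice with a pressure-loaded heart. The members were all genes with a single symbol in the platform's probe-gene table that began with Ndufa, Ndufb, Ndufc, Ndufs, Ndufv, Uqcr, Cox4, Cox5, Cox6, Cox7, Cox8 or Atp5, together with Sdha, Sdhb, Sdhc and Sdhd, and without the Ndufaf assembly factors. This gave 82 genes of 18193 with a single symbol, read by 169 probe sets, of which 36 genes belonged to complex I, 4 to complex II, 8 to complex III, 17 to complex IV and 17 to complex V. The label was checked only through the symbols, and it is loose in places. Ndufa4, placed in complex I by its symbol, encodes a protein now assigned to cytochrome c oxidase, and Ndufa4l2 and Cox7a2l encode relatives of chain subunits.

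The sham group held 3 and the transverse aortic constriction (TAC) group 3 male mice of the strain labelled C57/Bl6, with no genetic alteration named, sampled 8 weeks after surgery. TAC narrows the aorta so that the heart pumps against a raised pressure, and sham mice had the operation without it. Medulla was cut from frozen sections with a microchisel, RNA of both medullae of an animal was extracted together, and each animal filled 1 Affymetrix 3′ expression array after 2 rounds of amplification, a step that favours the 3′ end of transcripts. Values are log2 intensities, differences are TAC minus sham on that scale, SD is the spread between arrays, SE is the standard error of the limma fit, and n = 3 arrays per group throughout.

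The respiratory chain sits in the inner mitochondrial membrane. Complex I takes electrons from NADH and complex II from succinate, both pass them through ubiquinone to complex III, cytochrome c carries them to complex IV, which reduces oxygen, and complex V uses the resulting proton gradient to make ATP. A few core subunits are encoded by mitochondrial DNA and all others by nuclear genes, of which those under the symbol rule are described here. Chromaffin cells spend ATP on filling and releasing catecholamine granules, and inherited loss of succinate dehydrogenase subunits is a known cause of human phaeochromocytoma, a tumour of these cells.

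Nuclear chain genes are known for promoters that carry sites of NRF1, of ETS factors such as GABP, and of YY1. RefSeq promoter windows (GRCm38.p6, 250 bases before to 50 after the start) were matched for 67 of the 82 genes, giving 72 windows because some genes have several starts. On either strand, the NRF1-type letters GCGCA, then any base, then GCGC were in 16 of 72 windows (22.2%) against 4.6% of all 32851 windows. The ETS-type letters CCGGAAG were in 17 (23.6%) against 8.86%, and the YY1-type letters AAGATGGCG in 6 (8.33%) against 1.4%. Any of these was in 34 windows (47.2%) against 13.6%, with 0 overlaps between matches of different motifs, while TATAAA was in 12.5% against 13.6% and CCAAT in 40.3% against 37.4%. Base composition differed as well, with a median GC content of 58.5% in the members' windows and 52.7% in all. A match is a description of letters and shows no binding. The 250 bases before the start of 4 genes are shown with NRF1-, ETS- and YY1-type matches in capitals. Uqcrh had the largest difference below and Ndufs8 the largest above sham, and Sdha and Sdhd carry the most such matches of the complex II genes. All 4 lie on the minus strand and are written 5′ to 3′ along it, at chr4:116075071-116075320 for Uqcrh, chr19:3912775-3913024 for Ndufs8, chr13:74350241-74350490 for Sdha and chr9:50603850-50604099 for Sdhd.
Uqcrh: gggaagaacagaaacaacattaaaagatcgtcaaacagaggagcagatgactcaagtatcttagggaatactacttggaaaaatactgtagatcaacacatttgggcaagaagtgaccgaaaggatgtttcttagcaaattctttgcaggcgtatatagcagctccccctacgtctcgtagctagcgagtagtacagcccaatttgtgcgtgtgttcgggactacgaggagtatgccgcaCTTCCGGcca
Ndufs8: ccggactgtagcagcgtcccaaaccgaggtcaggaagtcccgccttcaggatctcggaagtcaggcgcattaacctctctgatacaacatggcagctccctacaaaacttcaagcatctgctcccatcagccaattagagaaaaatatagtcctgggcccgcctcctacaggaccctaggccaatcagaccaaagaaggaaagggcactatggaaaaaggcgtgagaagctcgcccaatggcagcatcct
Sdha: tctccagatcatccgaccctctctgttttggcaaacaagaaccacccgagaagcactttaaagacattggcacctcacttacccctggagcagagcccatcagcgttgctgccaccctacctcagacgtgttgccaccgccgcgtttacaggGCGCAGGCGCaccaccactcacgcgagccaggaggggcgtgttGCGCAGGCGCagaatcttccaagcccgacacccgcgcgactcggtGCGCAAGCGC
Sdhd: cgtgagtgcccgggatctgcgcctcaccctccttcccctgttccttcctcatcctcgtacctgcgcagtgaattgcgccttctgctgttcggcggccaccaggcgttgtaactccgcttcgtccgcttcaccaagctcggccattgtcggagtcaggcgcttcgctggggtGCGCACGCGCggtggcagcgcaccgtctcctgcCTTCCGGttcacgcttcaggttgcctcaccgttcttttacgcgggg
Uqcrh had an ETS-type match 10 to 4 bases before the start, and Sdhd had one 46 to 40 bases before it together with an NRF1-type match at 79 to 70 bases. Sdha had 3 NRF1-type matches, at 98 to 89, 55 to 46 and 10 to 1 bases before the start. Ndufs8 had no NRF1-, ETS- or YY1-type match in the stretch shown, but an ETS-type match 15 to 21 bases after the start. CCAAT, which occurs in the Ndufs8 and Uqcrh stretches and on the other strand in the Sdha stretch, and TATAAA are not marked.

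Of the 82 genes, 73 were tested, because a probe set had to reach log2 4 on at least 3 of the 6 arrays whatever their group, and 137 of the 169 probe sets did so. The 9 genes below this filter were Ndufb1 and Ndufb4 of complex I and 7 genes of complex IV. Several of the 7 encode tissue isoforms: Cox6a2 and Cox7a1 of heart and skeletal muscle, Cox4i2, known from lung, and Cox6b2, Cox7b2 and Cox8c, known from testis. Their readings lay between 1.43 and 3.52 on all arrays. Cox8a, the common isoform of its subunit, also read between 0.80 and 2.60 with all 3 of its probe sets, so a low reading here is that of a probe set and not a proof that the transcript was missing. The muscle and brown fat isoform Cox8b did pass and measured 6.94, 7.33 and 6.69 in sham 1 to 3 and 6.27, 7.03 and 6.48 in TAC 1 to 3, with the groups overlapping (difference -0.39 ± 0.31 SE). Of 9 fat markers in the table only Fabp4, also an endothelial and macrophage gene, passed the filter, and Ucp1, Cidea and Adipoq did not. Of 15 striated muscle markers 3 passed, while Ckm, Acta1 and Mb did not.

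The arrays differed in ways that touched these genes. A Gapdh control reads both ends of its transcript, and the 3′ reading minus the 5′ reading, which grows as transcripts are shortened, was 5.15 in sham 1 and 4.71 in TAC 1, 3.98 in TAC 3, 3.67 in TAC 2, 3.08 in sham 2 and 2.88 in sham 3. The mean of 9 chromaffin markers, among them Th and Chga, lay between 12.30 and 13.03 on all arrays. The mean of 8 adrenal cortex markers ran from 6.66 to 10.51 in sham and from 6.65 to 9.23 in TAC, highest in sham 3 and TAC 1, and the fibroblast marker mean from 7.32 to 8.60 and from 6.62 to 7.75, with a median difference of -1.25. At an unadjusted p under 0.05, where 7.29% of all tested genes lay, 4 of these 8 genes were lower and 1, Pdgfrb (0.81), was higher. Of 6 glia markers 5 lay above sham (median 0.52), where 58.7% of all tested genes did, and 2 of them at an unadjusted p under 0.05. Cortex cells are rich in mitochondria, and the part of these cell types in the values that follow was not tested. In bulk tissue, fewer cells of a type and less RNA per cell cannot be told apart.

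Within each group the members differed between arrays. Their median over the 73 genes was 10.06 in sham 1 and 9.99 in TAC 1, against 10.60 and 10.72 in sham 2 and 3 and 10.72 and 10.55 in TAC 2 and 3. Over all tested genes the medians were 6.71, 7.51 and 7.50 in sham 1 to 3 and 7.04, 7.69 and 7.32 in TAC 1 to 3. The members' median stood above these by 3.35, 3.10 and 3.22 in sham and by 2.95, 3.03 and 3.23 in TAC. For the members and for all genes, the array with the largest Gapdh end difference in each group was the lowest of that group. The part of RNA quality was not tested, and values are given with the Gapdh covariate and within arrays split by rank of that difference. The larger side held sham 1, TAC 1 and TAC 3, with sham 1 alone for sham. The smaller side held sham 2, sham 3 and TAC 2, with TAC 2 alone for TAC. The arrays of a side were not alike, as TAC 3 (3.98) lay nearer TAC 2 (3.67) than sham 1 (5.15). Sham 1 lay below the mean of sham 2 and 3 for 62 of 73 genes (84.9%, median -0.72), and TAC 1 below the mean of TAC 2 and 3 for 64 (87.7%, median -0.59). Over all 10181 tested genes the same was seen for 75% (median -0.58) and 70.1% (median -0.35). In both groups at once the shortfall was over 1 for 26.3% of the member probe sets and for 15.3% of all tested ones. The members' median intensity lay above that of all tested genes on each array, and dim readings are compressed in these values. The part of intensity in these shares was not tested. The size of the shortfall differed widely between members. Across the 137 member probe sets the sham 1 and TAC 1 shortfalls had Pearson's r = 0.77 and Spearman's rho = 0.74, and across all 18188 tested probe sets 0.76 and 0.78; probe sets share the arrays and are not independent.

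**Figure D1:**
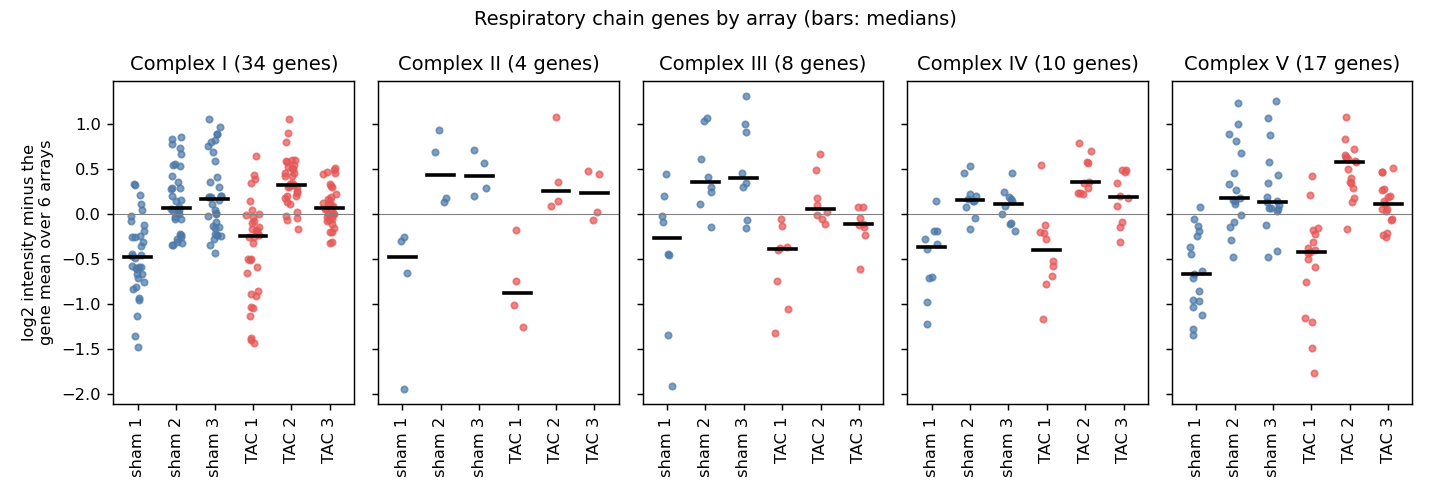
Log2 intensity of each of the 73 tested genes minus its own mean over the 6 arrays, by array and complex, with sham in blue, TAC in red and bars at the medians. Sham 1 and TAC 1 have the lowest medians of their groups in all 5 panels.

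Examples chosen after their values were seen show what this means for single genes. Sdhd, a membrane anchor of succinate dehydrogenase, measured 5.30 in sham 1 and 5.07 in TAC 1 by its plain _at probe set, against 9.20 and 9.15 in sham 2 and 3 and 8.20 and 6.91 in TAC 2 and 3. Uqcrc1, a core protein of complex III, measured 5.83 and 6.69 in the same first arrays, against 8.81 and 9.06 in sham and 8.23 and 7.82 in TAC. By contrast Ndufa5, an accessory subunit of complex I, measured 12.63, 12.57 and 12.71 in sham and 12.52, 12.48 and 12.20 in TAC. Probe sets with a plain _at name, which match no other listed transcript, had larger shortfalls (medians -0.97 and -0.96 over 57) than those with a letter suffix (-0.58 and -0.50 over 80). Over all tested probe sets these kinds hardly differed, at -0.46 and -0.25 for the plain ones and -0.45 and -0.29 for the others.

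**Figure D2:**
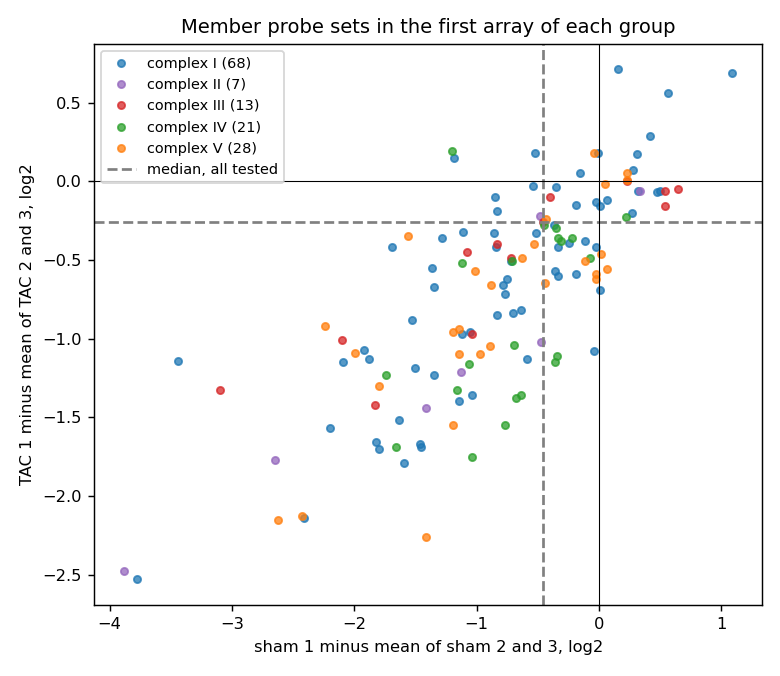
Each point is 1 of the 137 tested member probe sets, with sham 1 minus the mean of sham 2 and 3 on the x axis and TAC 1 minus the mean of TAC 2 and 3 on the y axis, both in log2 units and coloured by complex. Dashed lines mark the medians of all tested probe sets, -0.46 and -0.26, where the medians of the member probe sets were -0.72 and -0.57.

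TAC and sham were compared to ask whether the chain is expressed differently in the medulla under cardiac pressure overload. No member passed an adjusted p of 0.05 in limma, at 0 of 137 probe sets (0% of all 18188 tested), where the smallest adjusted p reached 0.465. An unadjusted p under 0.05 was found for 11 member probe sets (8.03%), 8 higher and 3 lower after TAC, beside 6.94% of all tested probe sets, 4.65% higher and 2.29% lower. The members' split was 7 higher and 4 lower with centred arrays (8.03%, beside 7.48% of all). After quantile normalization it was 7 and 7 (10.2%, beside 7.96%). The groups did not overlap for 19 member probe sets (13.9%), beside 13.0% of all, with 12 higher (beside 9.01%) and 7 lower (beside 4.01%). These shares are near the background, and the member counts include an Ndufab1 probe set that passed the filter only through the TAC arrays. With 1 probe set per gene, the one with the highest mean, 38 of 73 genes lay above and 35 below sham, or 52.1% above, where 58.7% of all genes did, and the median difference was 0.01 against 0.09 for all genes. With centred arrays the members' median was -0.02 and after quantile normalization -0.06. With the Gapdh covariate it was 0.20, with 51 of 73 genes above sham, against 0.21 for all genes. It was 0.28 over sham 1, TAC 1 and TAC 3 and 0.17 over the other arrays, where all genes had 0.33 and 0.18. All but 1 of the 73 genes lay within 1 log2 unit of sham. Leaving out sham 1 moved the members' median to -0.21, against -0.07 for all genes. The member count at an unadjusted p under 0.05 was then 25 (18.2%), 7 higher and 18 lower. Of all tested probe sets 13.4% lay under it in that setting, 38.9% of these higher. Leaving out both sham 1 and TAC 1 gave a median of 0.01, against 0.04 for all genes. The member count was 30 (21.9%), 12 higher and 18 lower, beside 13.8% of all tested, 44.6% of these higher. It was 7 (5.11%) without sham 2, beside 3.52% of all, and 7 (5.11%) without TAC 3, beside 3.82%.

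**Figure D3:**
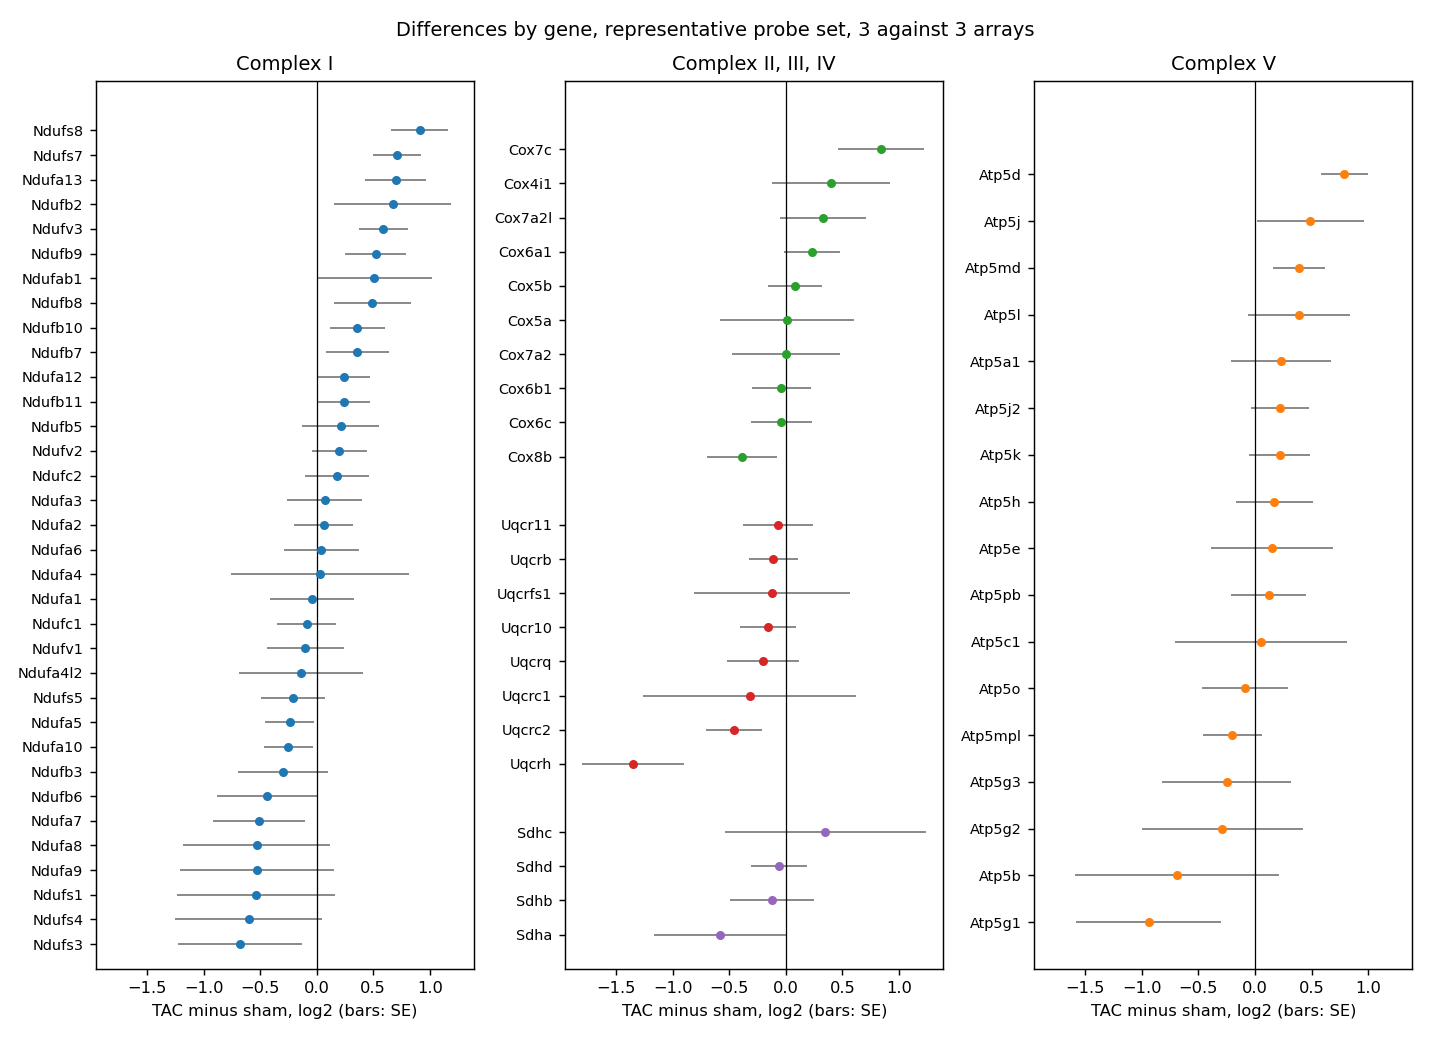
Difference of TAC minus sham on the log2 scale for the 73 tested genes, ordered within each complex, with bars of 1 SE. The difference was smaller than 1 SE for 48 of 73 genes, Uqcrh stands lowest at -1.35, and the 8 complex III members all lie below 0.

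In complex I, 19 of 34 tested genes lay above sham (55.9%, beside 58.7% of all genes) and 15 below (median 0.05, but -0.01 after quantile normalization). An unadjusted p under 0.05 was found for 6 of 68 probe sets (8.82%), all higher after TAC, beside 6.94% of all tested, 4.65% higher. The 6 include an Ndufab1 probe set that passed the filter only through the TAC arrays. Ndufs8 and Ndufs7 encode iron-sulphur subunits on the path to ubiquinone. Ndufs7 measured 11.10, 11.28 and 11.21 in sham and 11.94, 11.90 and 11.87 in TAC. The groups were far apart relative to their spread, at 1.63-fold (difference 0.71 ± 0.21 SE, limma adjusted p = 0.551). Ndufs8 measured 9.33, 9.82 and 9.92 in sham and 10.58, 10.57 and 10.64 in TAC by an _x_at probe set, a 1.87-fold difference (0.91 ± 0.25 SE, limma adjusted p = 0.514). All TAC values were above all sham values, and a second _x_at probe set gave 0.92. The other 3 Ndufs8 probe sets gave 0.18, 0.34 and 0.61 with overlapping groups, and the gene read 0.18 without probe sets of the _x_at and _s_at kinds. The second Ndufs7 probe set gave 0.52 ± 0.64 SE, with 6.48, 8.60 and 8.12 in sham and 7.5, 8.79 and 8.47 in TAC.

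Ndufv3, an accessory subunit of the NADH-oxidising module, measured 11.96, 11.73 and 11.64 in sham and 12.42, 12.28 and 12.41 in TAC (difference 0.59 ± 0.22 SE, limma adjusted p = 0.672). Ndufa13, also known as GRIM-19, measured 11.91, 12.28 and 12.26 against 12.47, 13.11 and 12.97 (0.70 ± 0.27 SE, adjusted p = 0.696). In both genes every TAC array lay above every sham array. Ndufab1, the mitochondrial acyl carrier protein, measured 3.67, 3.49 and 3.92 in sham and 4.21, 5.43 and 5.14 in TAC by a probe set near the filter (1.23 ± 0.37 SE, limma adjusted p = 0.560). This probe set passed the filter only through the 3 TAC arrays, as no sham array reached log2 4, so its reading lends no support to a difference. The other Ndufab1 probe sets gave 0.51 and 0.09. The catalytic subunits of the NADH module gave no common direction. Ndufv1, which holds the flavin that accepts electrons from NADH, differed by -0.10 ± 0.34 SE (95% interval -0.94 to 0.73), and Ndufv2 by 0.20 ± 0.24. Ndufs1, the large iron-sulphur subunit, measured 7.78, 9.55 and 9.61 in sham and 7.31, 9.22 and 8.80 in TAC (-0.54 ± 0.70 SE), so its first arrays stood apart more than its groups. The lowest complex I gene was Ndufs3 at -0.68 ± 0.55 SE, chosen after its values were seen.

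**Figure D4:**
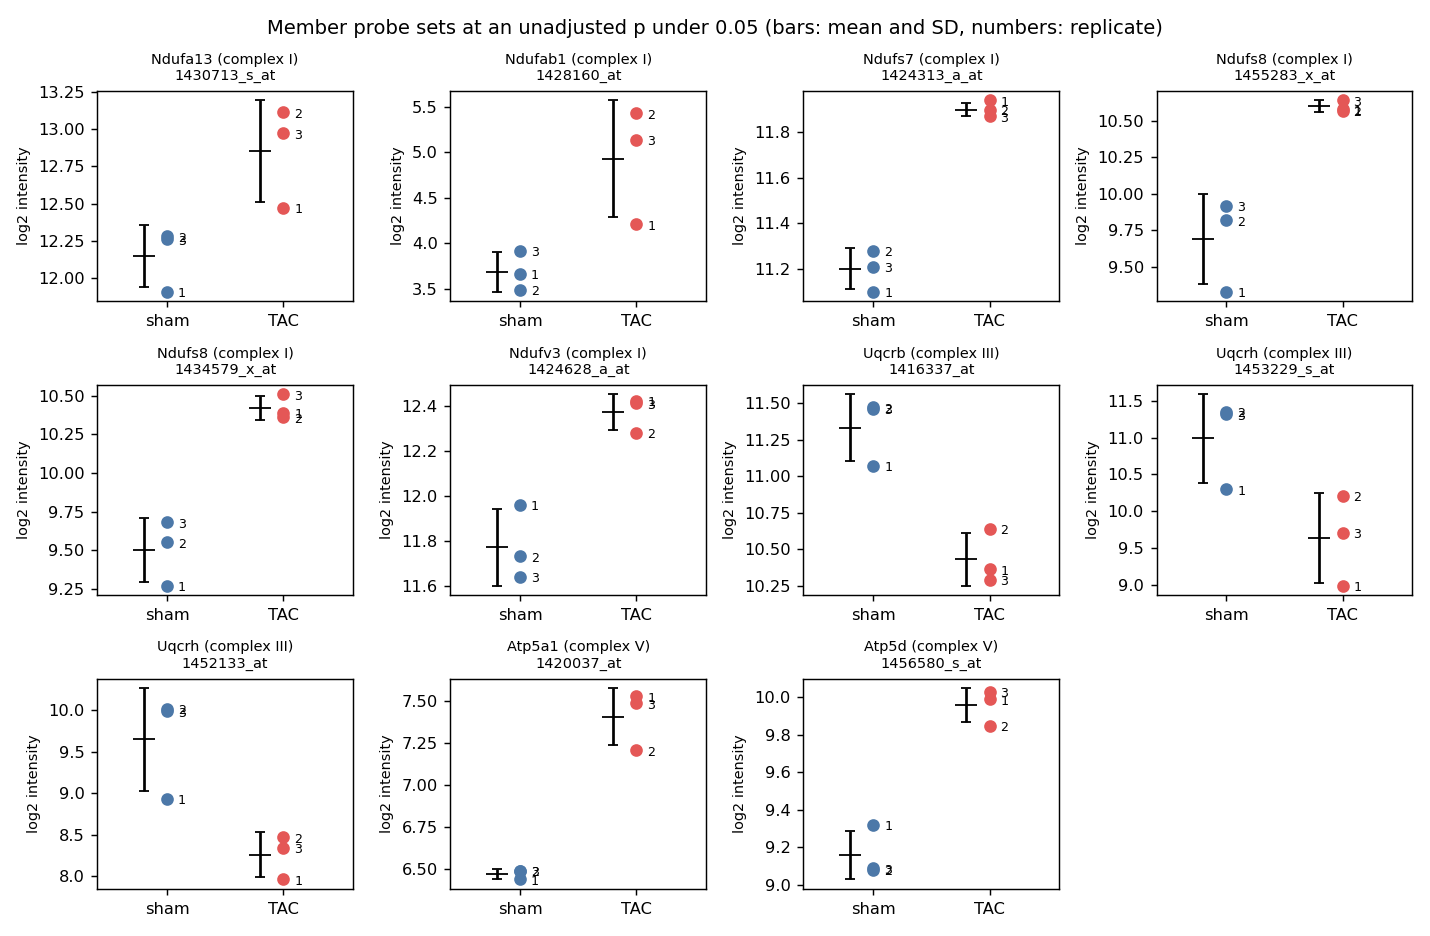
Log2 intensity on each array for the 11 member probe sets with an unadjusted p under 0.05, with sham in blue, TAC in red, replicate numbers beside the points and bars for the mean and SD of 3 arrays. In each panel the groups are apart, and the vertical axes differ and do not start at 0. The Ndufab1 probe set passed the filter only through the TAC arrays.

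Of the complex II genes, 1 of 4 lay above sham (25%, beside 58.7% of all genes) and 3 below (median -0.09). An unadjusted p under 0.05 was found for 0 of 7 probe sets, beside 6.94% of all tested. Sdha, the flavoprotein that oxidises succinate, measured 9.88, 11.47 and 11.10 in sham and 9.28, 10.89 and 10.55 in TAC (-0.58 ± 0.59 SE, limma adjusted p = 0.973). Its second probe set gave -0.61, and in each group the first array was lowest. The difference was -1.05 without sham 1, -0.10 without TAC 1 and -0.25 with the Gapdh covariate. Sdhb, the iron-sulphur subunit, measured 9.28, 9.67 and 9.82 against 8.79, 9.62 and 10.01 (-0.12 ± 0.37 SE), with the groups interleaved. The membrane anchor Sdhc measured 5.53, 8.17 and 8.19 against 6.47, 8.56 and 7.92 (0.35 ± 0.89 SE), while another of its probe sets lay between 7.04 and 7.39 on all arrays (-0.04 ± 0.22 SE). For Sdhd, the other anchor, the more even probe set differed by -0.06 ± 0.25 SE and the one described above by -1.16 ± 1.29. The intervals are wide, from -2.01 to 0.85 for Sdha and from -0.67 to 0.55 for the more even Sdhd probe set.

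Complex III held the largest difference among the members. All 8 of its members lay below sham (median -0.18, from -1.35 to -0.07), where 58.7% of all genes lay above it. Cyc1, the cytochrome c1 gene, which the symbol rule left out, lay above sham at 0.27 ± 0.58 SE. An unadjusted p under 0.05 was found for 3 of 13 probe sets (23.1%), all lower, beside 6.94% of all tested, 2.29% lower. These were both Uqcrh probe sets and 1 of Uqcrb. Uqcrh, the acidic hinge protein that helps cytochrome c1 meet cytochrome c, measured 10.30, 11.35 and 11.32 in sham and 8.99, 10.21 and 9.71 in TAC. Every TAC array lay below every sham array, at 2.55-fold lower (difference -1.35 ± 0.45 SE, 95% interval -2.44 to -0.26, limma adjusted p = 0.607). The second probe set measured 8.93, 10.02 and 9.99 in sham and 7.96, 8.47 and 8.34 in TAC (-1.39 ± 0.37 SE, adjusted p = 0.508). The first array of each group was again lowest. In sham 1, TAC 1 and TAC 3, which had the largest Gapdh end differences, Uqcrh differed by -0.94, and in the other 3 arrays by -1.13, although the direction was fixed by the groups not overlapping. With the Gapdh end difference as a covariate it was -1.11.

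Uqcrb, the ubiquinone-binding protein, gave a mixed picture. One probe set measured 11.07, 11.47 and 11.46 in sham and 10.36, 10.64 and 10.29 in TAC (-0.90 ± 0.24 SE, limma adjusted p = 0.508), with the groups apart. The other, with the higher mean, measured 13.61, 13.52 and 13.25 against 13.35, 13.40 and 13.30 (-0.11 ± 0.22 SE). The core protein gene Uqcrc2 measured 12.29, 12.68 and 12.83 in sham and 11.97, 12.32 and 12.14 in TAC (-0.46 ± 0.25 SE, adjusted p = 0.844), with sham 1 inside the TAC range, and its other probe set gave -0.78 ± 0.66. The Rieske iron-sulphur protein gene Uqcrfs1 (-0.12 ± 0.69 SE), Uqcrc1 (-0.32 ± 0.94 SE) and the small subunit gene Uqcr10 (-0.16 ± 0.25 SE) differed by less than their SE. The shared direction did not hold in every setting: 5 of 8 lay below sham with the Gapdh covariate, and likewise without sham 2, without sham 3 or without TAC 1, while all 8 did with centred arrays and after quantile normalization. The median was -0.54 without sham 1, -0.39 without TAC 2 and -0.06 without sham 2, and it was 0.01 over sham 1, TAC 1 and TAC 3 and -0.19 over the rest.

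In complex IV, 7 of 10 tested genes lay above sham (70%, beside 58.7% of all genes) and 3 below (median 0.04, but -0.02 after quantile normalization). An unadjusted p under 0.05 was found for 0 of 21 probe sets, beside 6.94% of all tested. Cox7c, a small nuclear subunit, measured 4.47, 5.65 and 5.69 in sham and 6.24, 6.05 and 6.04 in TAC (0.84 ± 0.38 SE, limma adjusted p = 0.766). The groups did not overlap, the lowest value came from sham 1, and the gene read 1.67 over sham 1, TAC 1 and TAC 3 and 0.38 over the others. Cox4i1, the common isoform of the largest nuclear subunit, measured 10.27, 11.45 and 11.42 against 10.56, 12.04 and 11.74 (0.40 ± 0.52 SE), with overlap, and 0.01 without sham 1 and 0.85 without TAC 1. Cox6a1, the isoform of tissues other than muscle, differed by 0.23 ± 0.25 SE and Cox6b1 by -0.04 ± 0.26. Cox7a2 differed by 0.00 ± 0.48 SE and Cox7a2l, known from supercomplexes of complexes III and IV, by 0.33 ± 0.38. Cox5a, a nuclear subunit on the matrix side, measured 11.21, 12.14 and 12.37 in sham and 10.75, 12.62 and 12.38 in TAC (0.01 ± 0.59 SE), with an SD of 1.02 in TAC. Cox5b, which binds zinc, was read at 0.08, 0.20, -0.52 and -0.91 by 4 probe sets.

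In complex V, 11 of 17 genes lay above sham (64.7%, beside 58.7% of all genes) and 6 below (median 0.15, but -0.20 without _x_at and _s_at probe sets). An unadjusted p under 0.05 was found for 2 of 28 probe sets (7.14%), both higher, beside 6.94% of all tested, 4.65% higher. Atp5d, the delta subunit of the central stalk, measured 9.32, 9.08 and 9.09 in sham and 9.99, 9.85 and 10.03 in TAC. This was 1.73-fold higher with no overlap (0.79 ± 0.21 SE, limma adjusted p = 0.508), yet the second probe set, 8.05, 8.70 and 8.66 against 8.20, 8.60 and 8.78, gave 0.06 ± 0.30. Atp5a1, a catalytic-head subunit, was read at 0.94 ± 0.22, 0.23 ± 0.44 and -0.74 ± 0.94 by 3 probe sets. The first of these measured 6.44, 6.49 and 6.49 in sham and 7.53, 7.21 and 7.49 in TAC (adjusted p = 0.465), and the last 8.91, 11.68 and 11.37 against 8.48, 10.90 and 10.36. Atp5b, which carries the catalytic sites, followed the latter pattern with 8.97, 11.48 and 11.32 against 8.48, 10.91 and 10.31 (-0.69 ± 0.90 SE). The stalk gene Atp5c1 measured 10.50, 11.92 and 11.90 against 9.98, 12.54 and 11.93 (0.05 ± 0.76 SE), and in both genes the first array of each group was lowest.

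Atp5g1, Atp5g2 and Atp5g3 encode the same mature subunit c of the membrane ring behind different targeting peptides. Atp5g1 measured 6.33, 8.19 and 8.45 in sham and 5.99, 7.02 and 7.13 in TAC (-0.94 ± 0.64 SE, limma adjusted p = 0.919). Sham 1 lay among the TAC values, and a second probe set gave 0.30 ± 0.36. The difference was -1.61 without sham 1 and -0.55 without sham 3. Atp5g2 differed by -0.29 ± 0.71 SE and Atp5g3 by -0.25 ± 0.57, so the 3 genes lay below sham by amounts within their errors or not far beyond. Atp5md, a small membrane subunit, measured 10.84, 10.75 and 10.48 against 11.10, 11.24 and 10.93 (0.39 ± 0.23 SE, adjusted p = 0.879), with every TAC array above every sham array.

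Probe sets of 1 gene often disagreed. Of the 43 member genes with several tested probe sets, 20 had readings on both sides of 0, and 62 of 93 pairs of probe sets (66.7%) shared their sign, beside 54.8% of 8181 pairs over all genes. The widest gaps between the highest and lowest reading were 1.68 in Atp5a1, 1.25 in Atp5g1, 1.15 in Ndufab1, 1.11 in Cox5b and 1.10 in Sdhd. The pair of Uqcrh readings lay 0.04 apart, and those of Sdha 0.03.

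**Figure D5:**
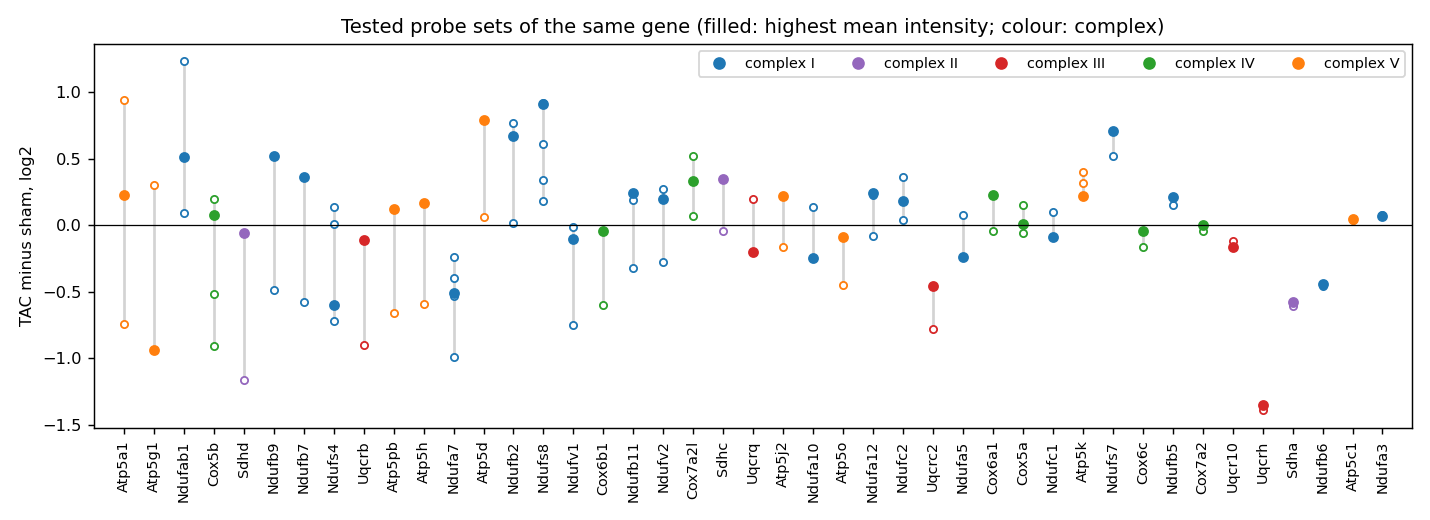
TAC minus sham on the log2 scale for every tested probe set of the 43 member genes with several, ordered by the gap between their readings, with the probe set of highest mean filled and colours for the complexes. The gap is widest at 1.68 in Atp5a1, and both Uqcrh readings lie near -1.4.

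Other genes of the pathway were read from lists beside the members, with 0 past an adjusted p of 0.05 in any list, and at an unadjusted p under 0.05 where 7.29% of all 10181 tested genes lay. Of all tested genes, 58.7% lay above sham. Of 19 tested regulators of mitochondrial biogenesis 17 lay above sham (median 0.28), with 1 higher and 1 lower at an unadjusted p under 0.05. Polrmt, the mitochondrial RNA polymerase, measured 4.17, 4.73 and 5.85 in sham and 7.14, 6.43 and 6.48 in TAC (1.77 ± 0.48 SE, limma adjusted p = 0.514). Tfb2m, its initiation factor, lay the other way at 7.19, 7.53 and 7.54 against 6.54, 6.97 and 6.44 (-0.77 ± 0.26 SE, adjusted p = 0.611). The groups did not overlap for either gene. The factors Nrf1 (0.07), Gabpa (0.46), Tfam (0.57) and Ppargc1a (-0.05), chosen as the textbook regulators and after their values were seen, had adjusted p-values from 0.953 to 0.998. The median stayed above 0 under both other scalings, at 0.25 and 0.30, with 17 and 15 of 19 genes above sham, and 12 of 19 were above it with array weights.

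Assembly factors lay above sham in 25 of 40 (median 0.17), but in 12 without sham 1 (-0.21), 13 with array weights (-0.40), 16 without TAC 2 (-0.09) and 17 without both first arrays (-0.10). The smallest p-values of the list belonged to Cox15, which makes haem A for complex IV, at 0.59 ± 0.20 SE (limma adjusted p = 0.627), and Tmem126b at -0.84 ± 0.36. The tricarboxylic acid cycle list had 7 of 18 above sham (median -0.14), but 11 with the Gapdh covariate (0.09) and 11 without TAC 1 (0.21), and 3 without sham 1 (-0.63). Its smallest p-values belonged to Pdhx at -0.67 ± 0.40 SE and Suclg2 at -0.38 ± 0.32. In the list of cytochrome c and other chain genes outside the symbol rule 4 of 9 lay above sham (median -0.12, but 0.11 without TAC 1). Etfb and Etfa, the subunits of the flavoprotein that feeds electrons from fatty acid oxidation to ubiquinone, were lowest there at -1.27 ± 0.47 SE (adjusted p = 0.682) and -1.15 ± 0.58. Coenzyme Q genes lay above sham in 5 of 10 (median -0.16, but 0.08 with averaged probe sets), with Coq10b at -1.37 ± 0.68 SE and Coq10a at -1.27 ± 0.78. Among mitochondrial antioxidant and uncoupling genes 5 of 8 lay above sham (median 0.06, but -0.01 after quantile normalization and -0.31 with array weights), with Ucp3 at 0.24 ± 0.24 SE and Txn2 at -0.27 ± 0.30. The only mitochondrially encoded chain gene matched was ND5, at 13.50, 13.09 and 12.68 in sham and 13.95, 13.08 and 13.30 in TAC (0.35 ± 0.35 SE). Unlike most members, it was highest in the first array of each group.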

How the data were processed

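Expression was measured on 6 Affymetrix Mouse Genome 430 2.0 arrays. The deposited values are linear intensities per probe set, and per the submitters' processing notes they were made with GCRMA (version: not given in the sources used here). GCRMA subtracts background, so dim readings are compressed. The 6 columns did not share 1 distribution, with 75th percentiles from 51.1 to 73.4.

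Values were log2-transformed with no pseudocount. Of 45101 probe sets, 64 controls were left out, and 18188 at log2 4 or more on at least 3 arrays were tested with limma 3.58.1 in R 4.3.3 (lmFit, eBayes, 4 residual degrees of freedom, Benjamini-Hochberg adjustment over all of them). Naming used GEO's platform table, and probe sets with several symbols were left out of it. All 82 member genes were found by Entrez identifier in the RefSeq table of GRCm38.p6. The probe set with the highest mean over 6 arrays stood for a gene. Genes given in full were the 3 with the smallest p in each complex, the succinate dehydrogenase genes, tissue isoforms, core subunits, the 5 with the widest gap between probe sets, and 2 per pathway list. Other genes named were chosen after their values were seen. The members and lists were chosen with earlier results of these data known. On simulated data with the spread of all 18188 probe sets, the procedure recovered 0.4% of 2-fold, 27.3% of 4-fold and 52.7% of 8-fold changes. The simulated noise was independent between probe sets, whereas array deviations in the data were shared by many of them, so these rates may not hold for the data. Alternatives covered scaling, filter, floor, probe set choice, array weights, a Gapdh covariate, a block and each array left out. The number of arrays limits the precision.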

Additional observations from a re-analysis of the deposited data

How the results depend on the processing

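No gene given in full and no list passed a threshold that could be lost, so stability here means direction. The median difference of the members and of each complex moved by less than the SD between arrays in all settings, and ran from -0.21 without sham 1 to 0.22 without TAC 1 for all members. The sign was not fixed: complexes I, IV and V had medians of -0.10, -0.07 and -0.07 without sham 1, and complex II 0.12 without TAC 1.

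At an unadjusted p under 0.05, all tested probe sets numbered 1263 and members 11. Without a filter on low values the counts were 2110 (4.69%) and 17 (10.1%). With array weights they were 8749 (48.1%) and 64 (46.7%, 23 members higher, 41 lower). With the Gapdh covariate they were 3843 (21.1%) and 28 (20.4%, 21 higher, 7 lower). With both first arrays left out, a choice made after seeing the data, they were 2507 (13.8%) and 30 (21.9%). Without _x_at and _s_at probe sets 6 members (6.38%) remained under it, beside 6.06% of all tested. Leaving out 1 array gave 641 to 2429 probe sets in all and 7 to 25 members. Weighting the arrays took 6698 of the 18188 tested probe sets past an adjusted p of 0.05, with weights from 0.143 for sham 1 to 6.11 for TAC 3. Of the 46 genes given in full 22 were past it. Part of the 46 was chosen by a small p in these same data, so that count is no result about these genes. In all other settings 0 probe sets passed. The higher share of all probe sets at an unadjusted p under 0.05, 67%, was 50.7% with centred arrays and 56.6% after quantile normalization.

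The titles give both groups the numbers 1 to 3 without saying that they pair animals. For that reason the numbers were not taken as pairs. Deviations of same-numbered arrays correlated at 0.76, 0.78 and -0.22, and those of other arrays as strongly, with 0.71 for sham 3 and TAC 2 and -0.84 for sham 1 and TAC 2. The deviations of a group sum to 0, so these values cannot settle whether animals were paired. With the replicate number as a block 3005 probe sets (16.5%) and 28 members (20.4%, 10 higher, 18 lower) had an unadjusted p under 0.05. In that setting 0 passed adjustment.

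The direction turned for some genes, among them Atp5b, Ndufs1, Sdhc and Uqcrc1, whose differences of -0.69, -0.54, 0.35 and -0.32 were smaller than their SE. With the Gapdh covariate Sdhb read 0.02, Sdhd 0.04, Cox6b1 0.06, Atp5g2 0.15, Atp5g3 0.05, Ndufv1 0.07, Uqcrfs1 0.30 and Uqcrc1 0.28. With array weights Sdhc read -0.24, Sdhb 0.18, Cox7a2 -0.15 and Atp5c1 -0.02. Centred arrays gave Cox7a2 -0.03 and Cox5a -0.02, quantile normalization Cox7a2 -0.06, Cox5a -0.06 and Atp5c1 -0.02. Averaged probe sets gave Cox7a2 -0.02 and Cox5b -0.29. Without _x_at and _s_at probe sets Cox5b read -0.91 and Atp5a1 -0.74. With both first arrays left out Sdhb read 0.07 and Uqcr10 0.04. With 1 array left out the ranges that crossed 0 were -0.08 to 0.58 for Atp5a1, -1.50 to 0.02 for Atp5b, -0.48 to 0.80 for Atp5c1, -1.03 to 0.09 for Atp5g2, -0.64 to 0.27 for Atp5g3, -0.34 to 0.59 for Cox5a, -0.01 to 0.20 for Cox5b and -0.19 to 0.05 for Cox6b1. They were -0.35 to 0.39 for Cox7a2, -1.14 to 0.03 for Ndufs1, -0.36 to 0.12 for Ndufv1, -0.38 to 0.22 for Sdhb, -0.53 to 0.94 for Sdhc, -0.22 to 0.03 for Sdhd, -0.27 to 0.02 for Uqcr10, -1.35 to 0.26 for Uqcrc1 and -0.82 to 0.30 for Uqcrfs1. Ranges that kept their sign but moved by over 1.5 times included -1.05 to -0.10 for Sdha, 0.01 to 0.85 for Cox4i1, -1.61 to -0.55 for Atp5g1, 0.44 to 1.05 for Cox7c, 0.16 to 0.96 for Ndufab1 and 0.12 to 0.70 for Cox7a2l. The cause was not tested.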

Other observations

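Among the 32 member probe sets below the filter, 1 of the complex III gene Uqcr10 read 3.82, 4.76 and 5.24 in sham and 3.62, 3.65 and 3.62 in TAC. Its other probe sets differed by -0.16 and -0.12 with overlapping groups. This reading was picked after its values were seen, and it reached log2 4 on 2 of 6 arrays.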
